A study of Mus musculus with 4 samples.

Results

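Creatine kinases and the proteins that supply them with creatine and ATP were followed in mouse hearts under pressure overload. The group holds 9 genes, namely Ckm, Ckmt2, Ckb, Ckmt1, Slc6a8, Gamt, Gatm, Ak1 and Slc25a4. They were chosen for their place in this energy circuit and found on the arrays through the RefSeq or Ensembl transcript that each probe is named by. All 9 had a probe, 11 probes and 20 spots in all, out of 21658 genes that could be named on the arrays. Ckb and Gamt had 2 probes each, Slc25a4 had 1 probe spotted 10 times, and each of the other members had 1 probe on 1 spot.

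The hearts came from male C57BL/6J mice after transverse aortic constriction (TAC), a surgical narrowing of the aorta that makes the left ventricle pump against high pressure, or after a sham operation. The groups compared were sham and TAC hearts at 2 weeks after surgery (age 10 weeks in the labels) and sham and TAC hearts at 8 weeks (age 16 weeks in the labels), although the study's methods give an age at surgery other than the one these ages imply. Equal amounts of RNA from 4 to 6 mice were mixed for each group and read on 1 single-color Agilent array, so each value below is that of 1 pool. There are no replicates, no p-value was computed, and the spread between mice is unknown.

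Cardiomyocytes keep their ATP level steady by passing phosphate between ATP and creatine. Creatine kinase in mitochondria loads creatine with phosphate where ATP is made, phosphocreatine carries it through the cell, and cytosolic creatine kinase regenerates ATP beside the myosin heads and ion pumps. The heart does not make most of its creatine but takes it up from blood, and a decline of creatine kinase activity is a well-known feature of failing hearts. The arrays measured mRNA, not enzyme activity or phosphocreatine.

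The upstream sequences of 3 creatine kinase genes are shown because these genes lay on opposite sides of sham after TAC: the muscle form Ckm and the sarcomeric mitochondrial form Ckmt2 were lower on both TAC arrays, and the brain form Ckb was higher. That direction did not depend on the scaling for Ckm and Ckb, but for Ckmt2 it turned under quantile normalization and under centring on probes of like signal at 2 weeks, and without scaling at 8 weeks. Each run is the 250 bases before the RefSeq start site, written 5′ to 3′ on the strand of the gene in GRCm38.p6. Capitals mark matches, on either strand, to 4 short motifs of muscle and housekeeping promoters. One is the TATA box, spelled TATAAA, which lies near the start of many genes. The CCAAT box is named by its own letters. An E-box, bound by muscle regulators of the MyoD family, was searched as CAGCTG, which reads the same on both strands. The estrogen-related receptor element, bound by regulators of mitochondrial genes, was searched as AAGGTCA. Ckm lies on the plus strand of chromosome 7 (chr7:19410844-19411093), Ckmt2 on the minus strand of chromosome 13 (chr13:91876886-91877135) and Ckb on the minus strand of chromosome 12 (chr12:111672339-111672588).
Ckm: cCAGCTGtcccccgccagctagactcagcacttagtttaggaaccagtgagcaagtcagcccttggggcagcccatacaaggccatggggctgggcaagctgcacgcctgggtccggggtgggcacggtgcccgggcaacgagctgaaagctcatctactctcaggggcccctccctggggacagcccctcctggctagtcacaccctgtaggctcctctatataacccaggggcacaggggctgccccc
Ckmt2: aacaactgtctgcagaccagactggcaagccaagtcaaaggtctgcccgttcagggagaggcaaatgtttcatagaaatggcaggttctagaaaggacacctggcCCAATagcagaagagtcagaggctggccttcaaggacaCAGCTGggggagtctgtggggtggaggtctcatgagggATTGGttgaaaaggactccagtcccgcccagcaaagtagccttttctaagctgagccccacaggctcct
Ckb: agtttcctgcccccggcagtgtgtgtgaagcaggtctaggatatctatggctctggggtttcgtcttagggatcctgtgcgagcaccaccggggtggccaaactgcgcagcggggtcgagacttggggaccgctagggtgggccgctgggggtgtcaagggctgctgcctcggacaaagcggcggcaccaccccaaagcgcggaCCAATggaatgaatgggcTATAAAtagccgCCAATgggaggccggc
The Ckm window held 1 E-box, 249 bases before the start. It also holds the run tatataa near the start site, which the search for the exact letters TATAAA did not count. The search therefore does not show that Ckm lacks a TATA box. The Ckmt2 window held a CCAAT box on each strand, at 145 and 69 bases, and 1 E-box of the letters CAGCTG between them. Other spellings of the E-box were not searched, so the E-box counts cover those letters only. The Ckb window held a TATA box at 28 bases and CCAAT boxes at 46 and 16 bases, and it contained 16 CpG dinucleotides against 6 in that of Ckm and 2 in that of Ckmt2. Among all 32851 RefSeq windows of this length, 12.4% held the TATA box, 33.8% the CCAAT box, 13.0% the E-box and 4.08% the estrogen-related receptor element, and none of the motifs overlapped another in the 3 windows shown. Of the other members with windows, Ckmt1 and Ak1 each held the estrogen-related receptor element in 1 window. These matches describe letters only, since no binding was measured.

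The scanner software marked all 9 members as well above background on every array, and no spot of any array was saturated. Signals are given as multiples of the array's 75th percentile over all probes, and levels of different genes cannot be ranked from them because each probe has its own brightness. As a yardstick, probes spotted 10 times on each array gave the spread of the log2 ratio of single spots between 2 arrays. This SD was 0.05 for bright probes (above 10 times the 75th percentile), 0.10 for middle ones and 0.28 for dim ones (below 0.25) in the 2-week comparison, and 0.05, 0.10 and 0.27 in the 8-week comparison. It covers spots only, not mice, pools or labeling. The labels were checked with Nppa, the atrial natriuretic peptide gene, which was 1.84 higher on the log2 scale in TAC than in sham hearts at 2 weeks and 2.65 higher at 8 weeks, and with Myh7, the slow myosin heavy chain, which was 2.71 and 3.69 higher.

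**Figure D1:**
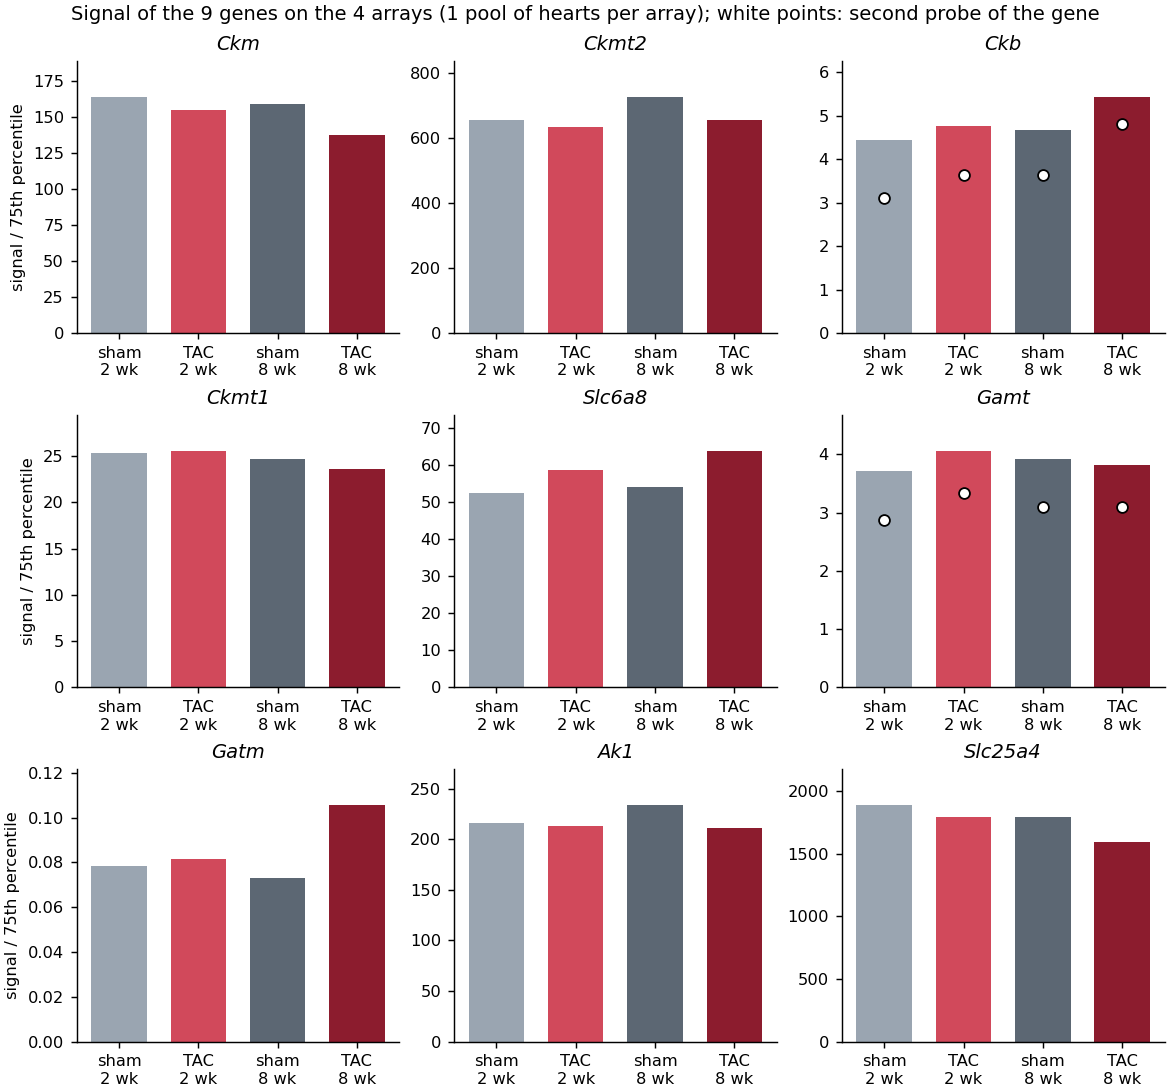
Signal of each of the 9 genes on the 4 arrays, as a multiple of the array's 75th percentile (vertical axes start at 0 and differ between panels; bars show the brightest probe, white points the second probe of Ckb and Gamt). There is 1 pool per bar and no error bar; Slc6a8 was at 52.4 and 53.9 in the sham pools and at 58.5 and 63.8 in the TAC pools.

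The members lay close to their sham levels, as most genes did. Of all genes measured, 93.3% lay within 1.5-fold of sham at 2 weeks and 90.7% at 8 weeks. None of the 9 members differed by more than 1.5-fold between TAC and sham at 2 weeks, when 4.17% of the 14419 genes measured were higher and 2.55% lower by that rule. None did at 8 weeks, when 5.36% of 14581 genes were higher and 3.98% lower. The median log2 TAC/sham over the 9 members was 0.01 at 2 weeks, beside -0.01 over all genes measured. At 8 weeks it was -0.07, again beside -0.01. Both medians of the members turned sign with scaling to the median of each array and under normexp background correction (-0.03 and -0.05 at 2 weeks, 0.02 and 0.01 at 8 weeks), and the 8-week one also without scaling (0.10). The median absolute change of the members was 0.08 at 2 weeks and 0.17 at 8 weeks, and that of all genes was 0.15 and 0.17. After TAC, 5 members were higher and 4 lower at 2 weeks, and 3 were higher and 6 lower at 8 weeks (from 4 to 7 higher at 2 weeks and from 3 to 7 at 8 weeks under other scalings). No member differed by over 1.5-fold between the 2 sham pools (1.62% of all genes higher and 1.21% lower at 8 weeks) or between the 2 TAC pools (2.84% and 2.87%).

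Ckm encodes the muscle creatine kinase of the cytosol, which sits at the M-band of the sarcomere and at the calcium pump. Its signal was 164 in the sham pool at 2 weeks, 155 in the TAC pool at 2 weeks, 159 in the sham pool at 8 weeks and 137 in the TAC pool at 8 weeks. Under this scaling both TAC pools lay below both sham pools, and the 8-week TAC pool stood lowest. On the log2 scale TAC/sham was -0.09 at 2 weeks, 1.83 spot SDs, and -0.21 at 8 weeks, a 1.16-fold lower signal at 4.39 spot SDs. The 2 sham pools differed by -0.04 (8 weeks over 2 weeks).

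Ckmt2 encodes the sarcomeric mitochondrial creatine kinase, the form of heart and skeletal muscle that faces the intermembrane space. Its signal was 655 and 636 in the sham and TAC pools at 2 weeks, and 728 and 655 in the sham and TAC pools at 8 weeks. The sham pool at 8 weeks stood alone above the other 3, and the TAC pool at 8 weeks was level with the sham pool at 2 weeks. This gave a log2 TAC/sham of -0.04 at 2 weeks and -0.15 at 8 weeks, and the difference between the 2 sham pools was 0.15. The 8-week difference of Ckmt2 was thus as large as the difference between its sham pools.

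Ckb encodes the brain creatine kinase, the cytosolic form that is prominent in the fetal heart and in non-muscle cells. The brighter of its probes gave 4.44, 4.77, 4.66 and 5.44 in the sham and TAC pools at 2 weeks and the sham and TAC pools at 8 weeks. The dimmer gave 3.11, 3.64, 3.64 and 4.82 in the same order. On both probes the 8-week TAC pool was the highest of the 4, while the 2-week TAC pool and the 8-week sham pool were close. The log2 TAC/sham of the brighter probe was 0.10 at 2 weeks and 0.22 at 8 weeks, a 1.17-fold difference at 2.28 spot SDs. The dimmer probe gave 0.22 and 0.40, the latter 1.32-fold. The probes thus had the same direction but differed in size, and the sham pools differed by 0.07 on the brighter and 0.23 on the dimmer probe.

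Ckmt1 encodes the ubiquitous mitochondrial creatine kinase. Its signal was 25.4 in the sham and 25.6 in the TAC pool at 2 weeks, and 24.7 in the sham and 23.6 in the TAC pool at 8 weeks. The pools overlapped, with log2 TAC/sham of 0.01 and -0.07, both under 2 spot SDs. Coding sequences of the 2 mitochondrial forms were 71.6% identical over 1256 aligned bases in the GENCODE transcripts, with a longest shared run of 39 bases between the transcripts. Ckm and Ckb were 75.8% identical over 1146 bases, with a longest shared run of 20 bases. Probe sequences were not used here, so whether a probe of one form also bound another was not tested.

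**Figure D2:**
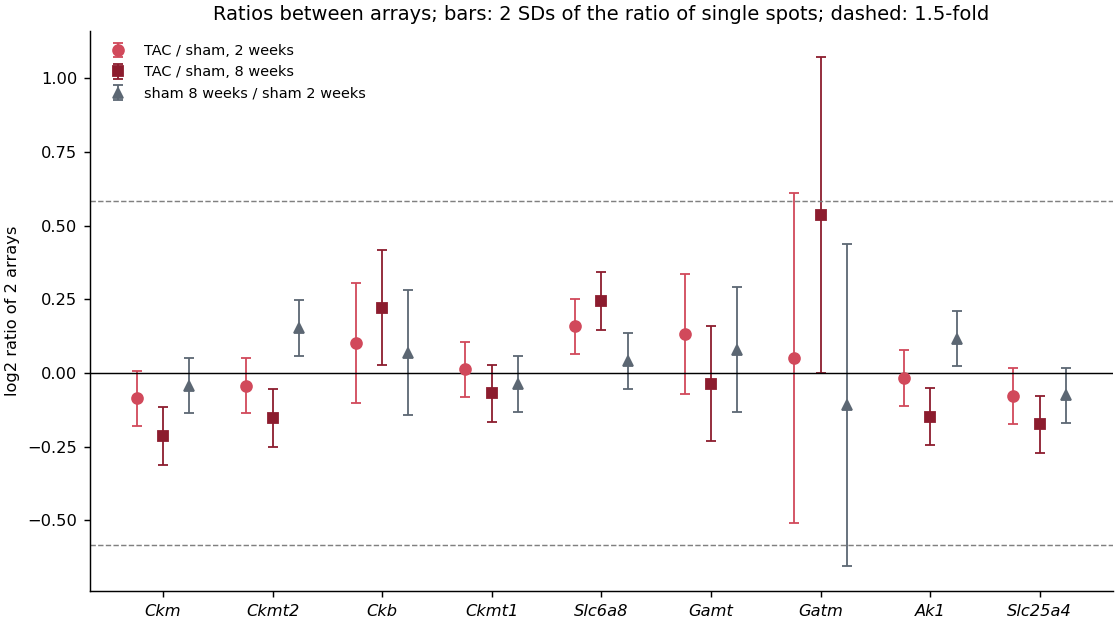
Log2 ratio between 2 arrays for each gene (vertical axis), for TAC over sham at 2 weeks (circles), TAC over sham at 8 weeks (squares) and sham at 8 weeks over sham at 2 weeks (triangles). Bars are 2 SDs of the log2 ratio of single spots in the gene's signal range and dashed lines mark 1.5-fold; every point lies inside the dashed lines, and the bars of Gatm reach furthest.

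Creatine enters the cardiomyocyte through the transporter encoded by Slc6a8. Its signal was 52.4 in the sham pool and 58.5 in the TAC pool at 2 weeks, and 53.9 in the sham pool and 63.8 in the TAC pool at 8 weeks. Both TAC pools were above both sham pools, by 0.12 on the log2 scale between the nearest of them. TAC/sham on the log2 scale was 0.16 at 2 weeks, 3.35 spot SDs, and 0.24 at 8 weeks, 1.18-fold and 5.01 spot SDs. The sham pools differed by 0.04.

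Creatine itself is made in 2 steps, chiefly in kidney and liver. Gatm encodes the first enzyme, glycine amidinotransferase, and Gamt the second, guanidinoacetate methyltransferase. The Gatm signal was 0.0786, 0.0814, 0.0729 and 0.106 in the sham and TAC pools at 2 weeks and the sham and TAC pools at 8 weeks. Only the 8-week TAC pool stood apart. The log2 TAC/sham was 0.05 and 0.54, the latter 1.45-fold, which was the widest difference of the 9 members under this scaling. The probe lay in the dim range of all 4 arrays, with background-corrected intensities of 16.2, 16.8, 16.1 and 26.3 scanner units, and its 8-week difference came to 2.00 spot SDs of dim probes. With normexp background correction in place of the scanner's own, the 8-week value was 0.13.

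For Gamt the brighter probe gave 3.71 in the sham and 4.06 in the TAC pool at 2 weeks, and 3.91 in the sham and 3.82 in the TAC pool at 8 weeks. The dimmer probe gave 2.88, 3.34, 3.1 and 3.1 in the same order. The 2-week TAC pool was the highest on both probes, and the sham and TAC pools at 8 weeks were close. The log2 TAC/sham of the brighter probe was 0.13 at 2 weeks, 1.29 spot SDs, and -0.04 at 8 weeks.

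Ak1 encodes adenylate kinase 1, which runs a parallel phosphate relay by turning 2 ADP into ATP and AMP. Its signal was 216 in the sham and 213 in the TAC pool at 2 weeks, and 234 in the sham and 211 in the TAC pool at 8 weeks. As for Ckmt2, the sham pool at 8 weeks was the highest and the other 3 pools lay together. Ak1 had a log2 TAC/sham of -0.02 at 2 weeks and -0.15 at 8 weeks, and the sham pools differed by 0.12.

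Slc25a4 encodes ANT1, the adenine nucleotide translocator that carries ATP out of the mitochondrial matrix toward mitochondrial creatine kinase. Its signal, a mean over 8 to 10 spots left after outlier spots, was 1890.2 in the sham and 1789.5 in the TAC pool at 2 weeks, and 1793 in the sham and 1589 in the TAC pool at 8 weeks. The 8-week TAC pool was the lowest, the 2-week sham pool the highest, and the remaining pair did not differ beyond the spread of spots (SD 113 and 108). The log2 TAC/sham was -0.08 at 2 weeks and -0.17 at 8 weeks, and the sham pools differed by -0.08. Paired by position, 9 of 9 spots were lower on the 8-week TAC array than on the 8-week sham array (mean log2 ratio -0.17, SD 0.06), and 7 of 7 were lower on the 2-week TAC than on the 2-week sham array (mean -0.11, SD 0.04). The spots were as uniform between the 2 sham arrays, where 7 of 7 were lower at 8 weeks (mean -0.11, SD 0.04), and between the 2 TAC arrays (9 of 9, mean -0.17), so that uniformity did not set TAC apart from sham.

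Under the scaling used here, both TAC pools lay on one side of both sham pools in 7 of the 9 members. Among the 14247 genes well above background on all 4 arrays, 49.5% did so. Ckb, Slc6a8 and Gatm were above (23.8% of all genes), and Ckm, Ckmt2, Ak1 and Slc25a4 were below (25.7%). The gap between the nearest TAC and sham pool was 0.12 in Slc6a8. In 6 of these 7 it was under 0.06 and below the spot SD of the gene's signal range. It came to 0.0002 in Ckmt2 and 0.003 in Slc25a4. Without scaling between arrays, the TAC and sham pools of Ckm, Ckmt2, Ckb, Ak1 and Slc25a4 overlapped. Ckmt2 and Ak1 were then highest in the 8-week TAC pool (162704 and 52492 scanner units). The share of all genes without scaling was not counted. On the dimmer Ckb probe the 2-week TAC pool did not lie above the 8-week sham pool. In the plot of the members among all genes, they fill the middle of the distribution at 2 weeks and spread further apart at 8 weeks.

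**Figure D3:**
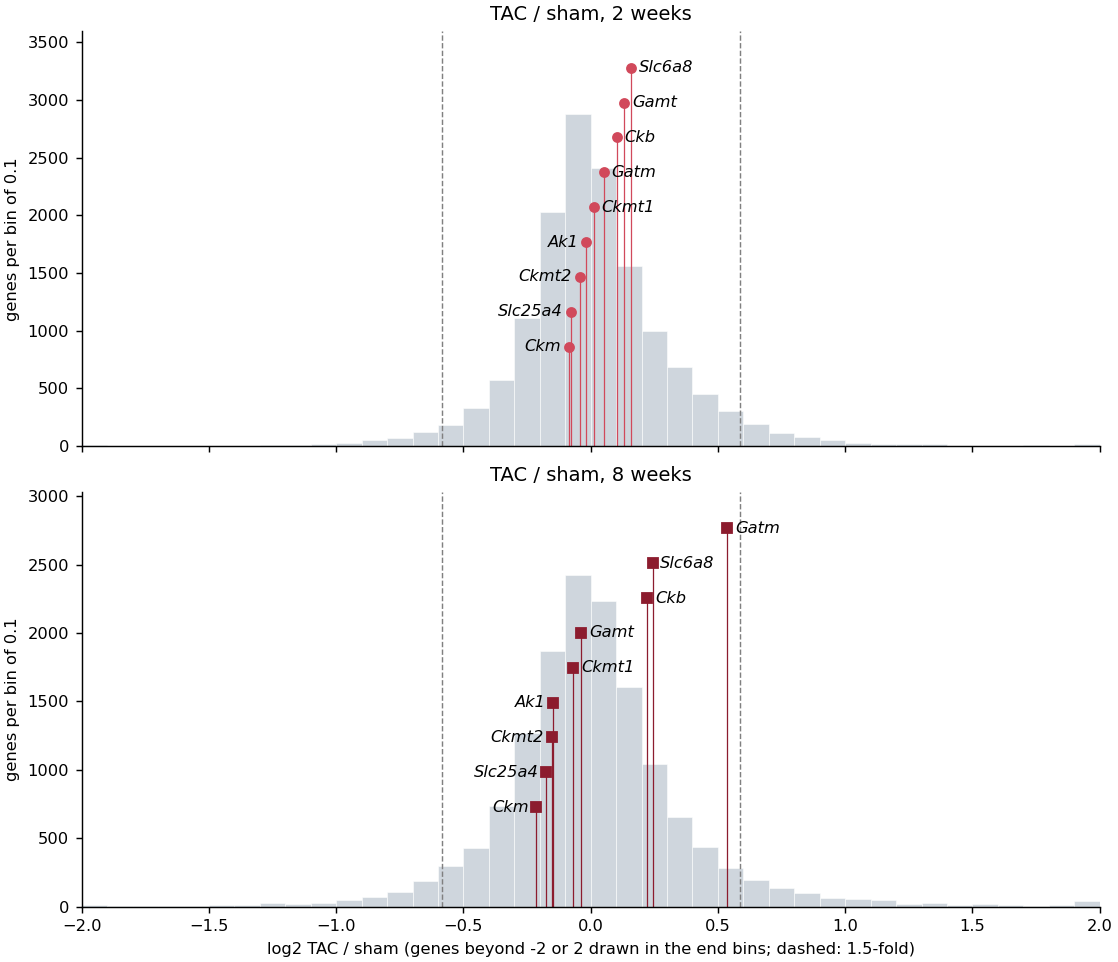
Number of genes per bin of 0.1 in log2 TAC/sham (bars; horizontal axis log2 TAC/sham, vertical axis genes per bin) at 2 weeks (top, 14419 genes) and 8 weeks (bottom, 14581 genes), with the 9 members marked by name at heights chosen for legibility. At 2 weeks the members lie between -0.09 and 0.16 and at 8 weeks between -0.21 and 0.54, all inside the dashed 1.5-fold lines.

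Directions of small changes depended on how the arrays were scaled to each other. The 75th percentile was 221 scanner units on the 8-week sham array and 248 on the 8-week TAC array, against 206 on both 2-week arrays. Without scaling, the median of all genes moved from -0.01 to 0.16 at 8 weeks, and 7 members were then higher and 2 lower. Relative to the median of all genes under the scaling used here and 7 other settings, the 8-week value of Ckm was -0.20 to -0.17, that of Ckb 0.21 to 0.25 and that of Slc6a8 0.24 to 0.31. Settings that only multiply each array by a constant cancel on that scale, so they could hardly move a value. These were scaling to the median, no scaling, the 75th percentile over spots and the deposited series table. The narrow ranges therefore rest on quantile normalization, normexp and outlier spots kept. Under each of those Ckmt2 was lower at 8 weeks, but at 2 weeks quantile normalization gave 0.04. Also on that scale, Ckmt1 and Gamt changed sign at 8 weeks under normexp. At 2 weeks Gatm and Ak1 changed sign under quantile normalization, Gatm also under normexp. Slc25a4 came to 0.01 at 8 weeks under quantile normalization. That setting gave it the same value on both 8-week arrays (log2 TAC/sham 0), so the 0.01 is only the median of all genes (-0.01) taken from 0. The 500 probes nearest in signal to Ckmt2 and to Slc25a4 had a median of -0.09 at 8 weeks, so these members lay -0.06 and -0.08 from probes of like signal. Ckm lay -0.18 from the 500 probes nearest to it at 8 weeks. At 2 weeks it lay -0.03 from them, less than the spot SD of 0.05, since those probes had a median of -0.05.

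**Figure D4:**
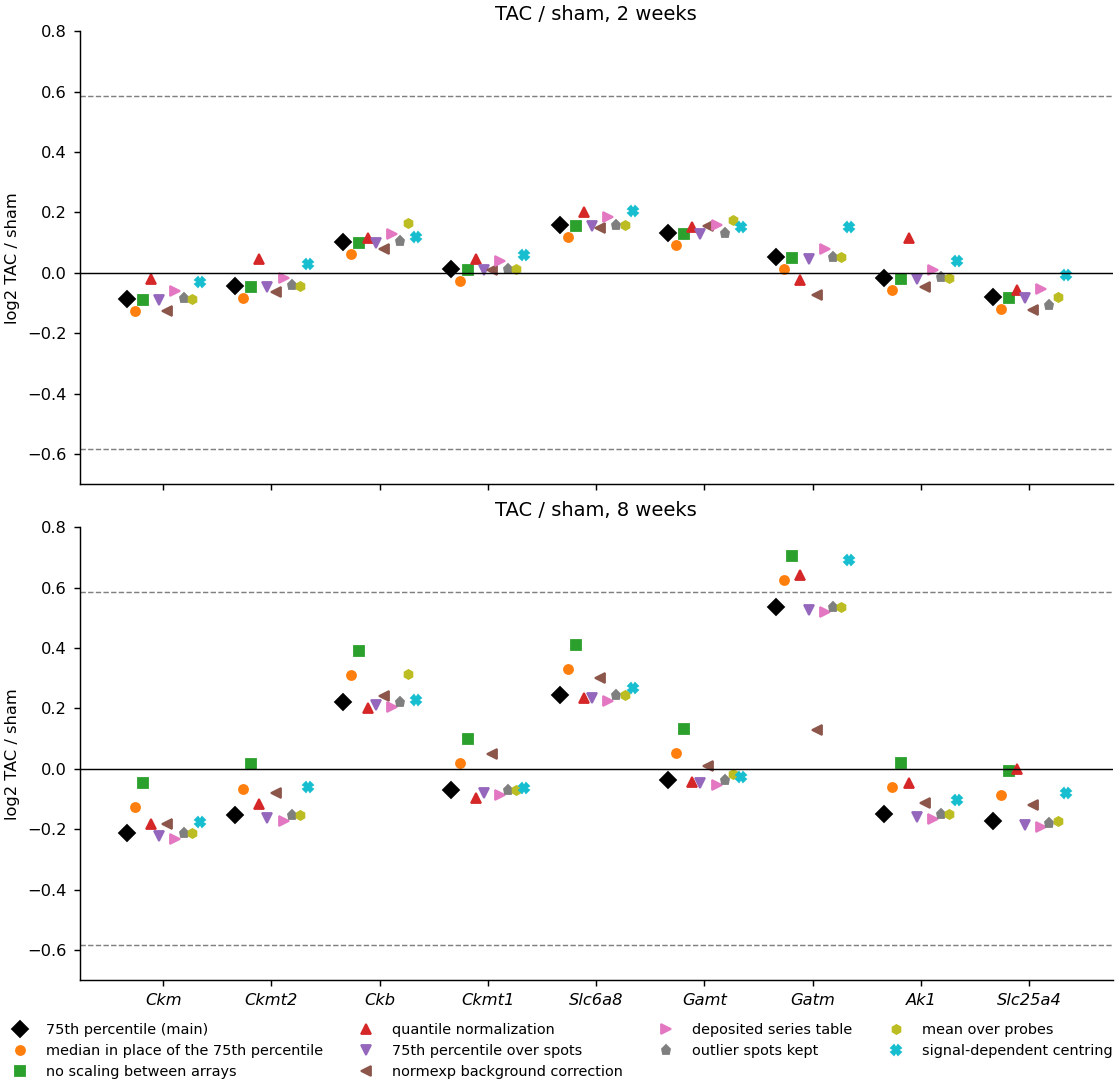
Log2 TAC/sham of each member (vertical axis) at 2 weeks (top) and 8 weeks (bottom) under the setting used throughout (black diamonds) and 9 others (colored marks); dashed lines mark 1.5-fold. Ckm lies below 0 and Ckb and Slc6a8 above 0 under every setting in both panels, while Ckmt2, Ckmt1, Gamt, Gatm, Ak1 and Slc25a4 reach or cross 0 under at least 1 setting, and Gatm passes 1.5-fold under 4 settings at 8 weeks.

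In addition, 8 lists of genes around the circuit, 61 genes in all, were described beside the members. All had a probe, and 53 were measured, that is, well above background, on each array. Of these, at 2 weeks 1 was over 1.5-fold higher after TAC and 1 lower, and at 8 weeks 2 were higher and none lower. Among ATPases that use ATP from creatine kinase, Myh7 passed at both times, with signals of 69.4 in the sham and 455 in the TAC pool at 2 weeks, and 69.3 and 895 at 8 weeks. The median over the 6 ATPases was -0.10 at 2 weeks and -0.11 at 8 weeks.

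Of 6 genes for the export of ATP from mitochondria, 5 were measured; 4 of them were lower after TAC at 2 weeks and all 5 at 8 weeks, with medians of -0.16 at both times, although 3 of 5 were higher at 8 weeks without scaling, when the median over all genes was 0.16. Slc25a3, the mitochondrial phosphate carrier, had signals of 206 and 170.1 at 2 weeks and 201 and 178 at 8 weeks in sham and TAC (log2 TAC/sham -0.28 and -0.17). Among adenylate kinases and nucleotide-exchange genes, 8 of 12 were measured, with medians of -0.03 and 0.01. Ak4, an adenylate kinase of the mitochondrial matrix, gave 4.37 and 3.29 at 2 weeks and 4.98 and 3.66 at 8 weeks in sham and TAC (log2 TAC/sham -0.41 and -0.45). Its 2 TAC pools lay below both sham pools under this scaling.

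Of the creatine precursor and related transporter genes, 5 of 8 were measured, with medians of -0.15 and -0.03. Slc7a1, a transporter of arginine, from which creatine is built, was at 15.6 and 10.1 at 2 weeks and at 18.7 and 13.2 at 8 weeks in sham and TAC. It was over 1.5-fold lower at 2 weeks (log2 TAC/sham -0.63) and not at 8 weeks (-0.51). The M-band and titin anchors, which hold muscle creatine kinase or lie beside it, were all measured (5 of 5), with medians of -0.01 and 0.18. Myom3, a myomesin of the M-band, had signals of 1.17 and 1.26 at 2 weeks and 0.993 and 1.85 at 8 weeks in sham and TAC (log2 TAC/sham 0.11 and 0.90).

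All 8 AMPK genes, which encode the energy-sensing kinase and its activator Stk11, were measured and none passed 1.5-fold after TAC. Their medians were -0.12 and 0.00. Between the 2 TAC pools Prkab2, a regulatory subunit, was 1.58-fold higher at 8 weeks than at 2 weeks. Prkag3, another regulatory subunit, had the largest mean change after TAC (0.57 and 0.22). Its signals of 0.142 to 0.234 lay in the dim range, where the spot SD was 0.28, and its sham pools differed by 0.50. All 10 regulators of mitochondrial energy genes were measured, with medians of -0.14 and -0.02 and none past 1.5-fold after TAC. Ppara, the nuclear receptor that drives fatty acid oxidation genes, had the largest mean change of these (-0.35 and -0.19). All 6 transcription factors known to act on the muscle creatine kinase gene were measured, with medians of -0.03 and -0.09, and Six4 had the largest mean change (-0.25 and -0.41).

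**Figure D5:**
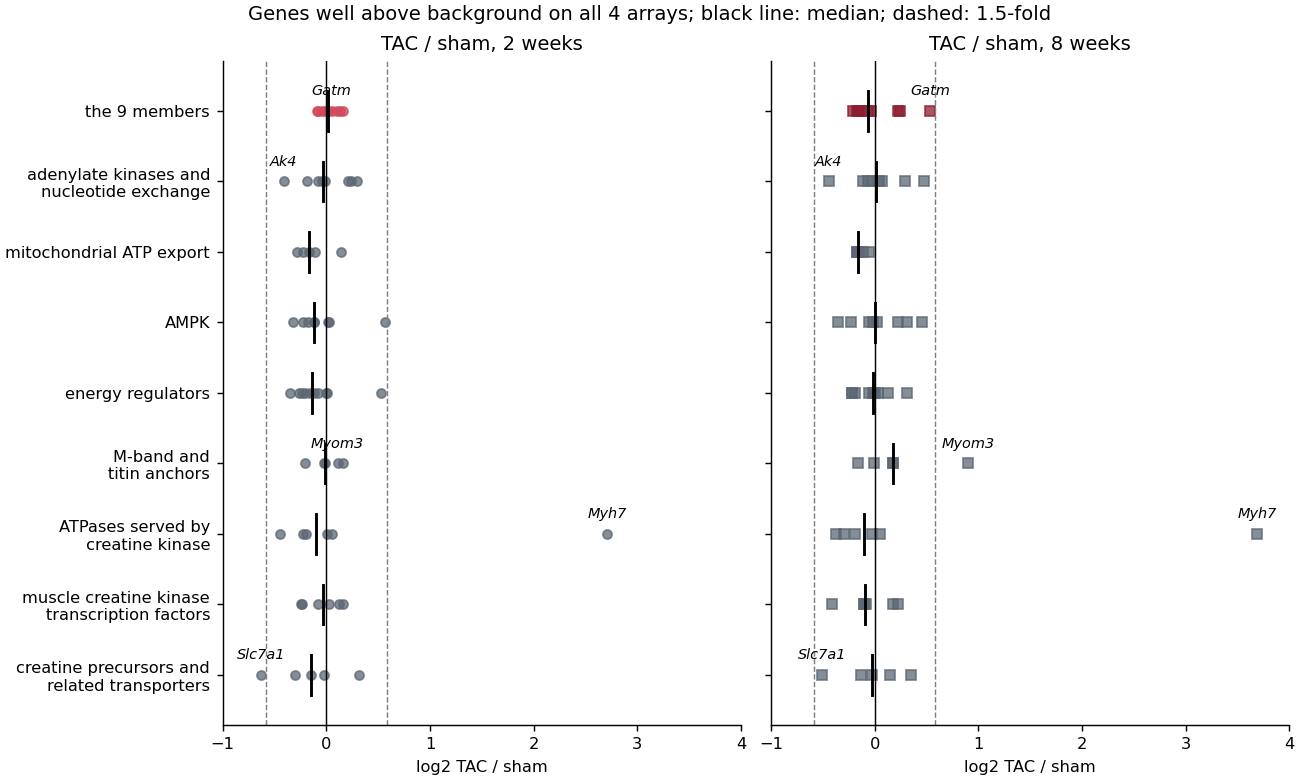
Log2 TAC/sham (horizontal axis) of each gene well above background on all 4 arrays, by list (rows), at 2 weeks (left) and 8 weeks (right); colored marks are the 9 members, black lines are medians and dashed lines 1.5-fold. Most genes lie within the dashed lines; Myh7 passes at both times (2.71 and 3.69), Slc7a1 at 2 weeks (-0.63) and Myom3 at 8 weeks (0.90).

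The hearts were bulk tissue, so fewer cardiomyocytes and less RNA per cardiomyocyte cannot be told apart. All 7 cardiomyocyte markers were measured, and their summed signal was 9402, 8805, 8891 and 7852 in the sham and TAC pools at 2 weeks and the sham and TAC pools at 8 weeks. Their median log2 TAC/sham was -0.19 at 2 weeks and -0.17 at 8 weeks, beside -0.09 and -0.21 for Ckm. This median stayed below 0 under the other scalings. At 8 weeks it came to -0.005 without scaling, when the median over all genes was 0.16, and at most 3 of the 7 markers were higher. All 6 fibroblast markers were measured and higher after TAC at both times under each scaling tried, with sums of 198, 271, 222 and 320. The 5 macrophage markers were higher too under this scaling, with sums of 32.0, 39.7, 32.9 and 41.2. The 4 smooth muscle markers summed to 45.6, 50.9, 46.7 and 44.1, and the 4 endothelial markers to 52.8, 53.1, 45.7 and 43.7. Outside the cardiomyocyte list, these sums were carried by the brightest probes. They were Dcn for fibroblasts, Csf1r for macrophages, Acta2 and Tagln for smooth muscle and Kdr for endothelium. By gene, 3 of 4 smooth muscle markers were higher after TAC at both times (median log2 TAC/sham 0.18 and 0.22), Acta2 being lower at 8 weeks (-0.40). Of the endothelial markers 3 of 4 were higher at 2 weeks (median 0.21) and 1 of 4 at 8 weeks (median -0.07). Ckb is also made by several of these other cells, and the part of the cell makeup in its values was not tested. Of 8 skeletal muscle markers, 3 were measured, and Myh1, Myh2, Myh4, Actn3 and Mylpf were not well above background on any array. Those measured were Tnnt3, in the dim range, Tnni2 and Tnnc2. Their log2 TAC/sham was 0.54, -0.20 and -0.05 at 2 weeks and 0.35, -0.54 and -0.44 at 8 weeks. The part of skeletal muscle transcripts in the values of Ckm and Ckmt2 was not tested. Of 7 neuron and glia markers 5 were measured on all 4 arrays, as were 3 of 4 of brown fat, 3 of 4 of lymphocytes and 1 of 4 of the atrium. That atrial marker, Myl4, had signals of 3.08, 3.06, 3.85 and 2.69 in the same order of pools. It was highest in the 8-week sham pool, by 0.32 on the log2 scale over the 2-week sham pool, and its log2 TAC/sham was -0.01 at 2 weeks and -0.52 at 8 weeks. Myl7 and Sln, well above background on 2 and 3 of the arrays, were also highest in the 8-week sham pool. They exceeded the 2-week sham pool by 1.80 and 0.63, but both lay in the dim range, where the spot SD between the sham arrays was 0.27. Bmp10, well above background on 1 array, was highest in the 2-week TAC pool, and its sham pools differed by 0.08. Nppa was lower in the 8-week than in the 2-week sham pool (-0.36 on the log2 scale). Ckmt2 and Ak1 were highest in the 8-week sham pool, and the part of atrial tissue in their values was not tested. Among the brown fat markers Ucp1, the defining gene, was not well above background on any array. Dio2, which encodes a deiodinase that activates thyroid hormone, exceeded its sham signal 5.26-fold in the 2-week and 12.5-fold in the 8-week TAC pool. Cidea, a lipid droplet protein, had signals of 40.9, 39.8, 35.4 and 47.6 and was 1.34-fold higher at 8 weeks, and Prdm16 had a log2 TAC/sham of -0.09 and -0.42. The median of these 3 was -0.04 at 2 weeks and 0.42 at 8 weeks.

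The genes whose profile over the 4 pools was closest to each creatine kinase were sought among 13445 other genes measured on all of the arrays, by the root mean square difference of log2 signals centered on their own mean. For Ckm they were Siglech, Srsf1 and Jarid2, at 0.01 or less. For Ckmt2 they were Syne1, Atad3a and E130309D02Rik, for Ckb they were Nploc4, Gtf3c4 and Hltf, and for Ckmt1 they were Slc35b4, Nrsn2 and Setd4, likewise at 0.01 or less. Such closeness was common, since 3011 genes lay within 0.1 of Ckm, 4110 of Ckmt2, 2992 of Ckb and 4210 of Ckmt1. With 4 points this likeness is a description only.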

How the data were processed

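Total RNA of sham and TAC hearts was read on 4 one-color arrays from Agilent (the SurePrint G3 Mouse GE 8x60K design, annotated on mm9), 1 pool of 4 to 6 mice per array. The arrays shared 1 slide and 1 scan. The authors deposited the scanner output of Agilent Feature Extraction, version 10.7.3.1 per the file headers and 9.1 per the labels. Its processed signal is an intensity per spot after background correction, not normalized between arrays. The deposited series table holds the same intensity times 1 constant per array. GeneSpring GX11 is named in the study's methods.

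From these files, spots marked as outliers were dropped, the log2 intensity was averaged per probe, and each array was scaled by subtracting its 75th percentile, taken over the 55681 probes that are not controls. Of these, 29358 were named by a gene through RefSeq transcripts (GRCm38.p6) or GENCODE, since the files hold no symbols. A gene was described by its brightest probe. It counted as changed when over 1.5-fold apart and well above background on both arrays. With 1 array per group there was no test, and the number of arrays limits the precision. Members and lists were chosen with earlier results of these data known. Named from the lists were genes past 1.5-fold at both times, otherwise the gene with the largest mean change of each, and for each creatine kinase its 3 nearest profiles. Counting was tested on simulated data. Alternatives were other scalings, background correction (limma 3.58.1, offset 50), the series table, outlier spots kept, the mean over probes, other folds and other filters. Centring on 501 probes of like signal was chosen after seeing the data. Python 3.11.15, numpy 2.4.6 and pandas 2.3.3 were used.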

Additional observations from a re-analysis of the deposited data

Results flagged for a closer look

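On the probes and scaling used throughout, Ckmt1 and Gamt had a TAC/sham difference of opposite sign at 2 and 8 weeks. For Ckmt1 the log2 TAC/sham was 0.01 at 2 weeks and -0.07 at 8 weeks, a difference of -0.081. For Gamt it was 0.13 at 2 weeks and -0.04 at 8 weeks, a difference of -0.168. With 1 pool per group these differences between times were not tested, and each of the 4 values was under 2 SDs of the log2 ratio of single spots. The second Gamt probe did not turn sign, with 0.22 at 2 weeks and 0.00 at 8 weeks. At 8 weeks both genes were above 0 under 3 other settings, namely scaling to the median (Ckmt1 0.02, Gamt 0.05), no scaling (0.10 and 0.13) and normexp (0.05 and 0.01), and with scaling to the median Ckmt1 was at -0.03 at 2 weeks.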

How the results depend on the processing

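No paired analysis was possible because each group had 1 array and the labels give no replicate numbers, and leaving out an array would leave no comparison. None of the 9 members passed 1.5-fold at 2 weeks under any of the settings tried. At 8 weeks the count over 1.5-fold higher was 0 and became 1 with scaling to the median of each array, without scaling, with quantile normalization, with signal-dependent centring and at the lower fold threshold. In each case that member was Gatm, whose log2 TAC/sham ranged from 0.13 under normexp to 0.70 without scaling. The median log2 TAC/sham over the members at 8 weeks was -0.07 and became 0.10 without scaling. That median also turned sign, though by less than the single-spot SD over all signal ranges (0.14), to 0.02 with scaling to the median and 0.01 under normexp. At 2 weeks it was 0.01 and turned to -0.03 and -0.05 under the same settings. These are among 68 counts and medians that either kept their count or moved by less than that SD. Of single values, 131 of those recomputed moved by less than the spot SD and 31 moved further. Part of both tallies was fixed in advance. The mean over probes leaves a member with 1 probe as it was. The filters on dim probes could change nothing, since all 9 members were well above background on every array. Slc6a8 and Ckb were higher and Ckm lower after TAC under all 9 other settings at both times. The cause of the moves was not tested. Spots show the precision of hybridization alone, and Gatm, near the dim end, was the least precise of the members.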
